A study of Mus musculus with 76 samples.

Results

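The IL-6 family was followed across mouse tumours through 10 genes: the ligands Il6, Lif, Il11, Clcf1 and Osm, the receptor chains Il6st, Osmr, Lifr and Il6ra, and the feedback inhibitor Socs3. They were chosen by symbol, and where several probe sets of the array name a gene, the probe set with the highest mean over all arrays stood for it. The 10 genes are 10 of 18194 genes on the array, and all 10 were among the 13868 genes that passed the filter on low values. They are read by 23 probe sets. Their levels on the deposited log2 scale ran from 3.68 to 12.73, above the median of 2.95 of 3 control probe sets for trp, a gene of bacteria.

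The study measured 76 tumours of C57BL/6 mice on Affymetrix arrays, 1 array for each. All came from a directed complementation model: the tumours were first driven by a doxycycline-inducible oncogene, HER2(V659E), doxycycline was withdrawn to suppress that driver, and 1 of 13 genes was introduced to ask whether it keeps the tumour growing. ErbB3, FGFR2aIIIb, FGFR2aIIIc, FGFR3, HER2, RONd160 and RON+MSP are receptor tyrosine kinases, the last with its ligand. Kinases inside the cell are FAK1, TNK2, RSK2, the lipid kinase PIP5K1B, and the starters of MAP kinase cascades MAP3K7 (TAK1) and MAP3K11 (MLK3). There were 4 arrays of FAK1 and 6 of each of the other 12 groups. The 6 MAP3K11 arrays are labelled as cachexia, a wasting syndrome of cancer, and the other 70 as without it. Because no other group carries that label, cachexia and the introduced gene cannot be told apart. The labels T1, T2 and T3 on the arrays are not defined. The labels call the arrays biological replicates and do not name the animals or tumour lines, so the p-values cover only the spread between arrays, part of which may be technical, and line and introduced gene cannot be told apart.

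Cytokines of the IL-6 family are secreted proteins that bind receptor complexes sharing the signal-transducing chain gp130, the product of Il6st. Il6ra gives IL-6 its specificity, Lifr serves LIF and CLCF1, and Osmr pairs with gp130 for oncostatin M in the mouse. The complexes activate JAK kinases and STAT3, and STAT3 induces Socs3, which shuts the receptor down. In tumours the ligands can come from cancer cells, fibroblasts and immune cells, and IL-6 and LIF have long been studied as mediators of wasting.

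The array medians lay between 5.45 and 5.56, and the number of arrays limits the precision. The epithelial keratins Krt8 (median 12.58, range 10.42 to 13.35) and Krt18 (median 12.36, range 5.22 to 13.48) were measured as a check of the tissue, which is labelled only as tumour. Other epithelial markers had lower medians: Cdh1 7.15, Epcam 7.13, Cldn3 6.13, Krt19 6.04, Cldn4 4.52 and Elf5 3.65. The medians of Cldn4 and Elf5 lay below the 40th percentile of every array (4.68 to 4.86). The basal keratins Krt5 (5.03), Krt14 (4.699) and Krt17 (3.33) were low as well. Within each group every array was matched to another on median expression by chromosome, which gave 38 pairs. All arrays were paired in this way, alike or not. The Pearson r over 19 autosomes was 0.957 (median of the pairs), against 0.16 for other arrays of the same group. The matching favours this difference. Single pairs ran from 0.473 to 0.991. In MAP3K11 they had 0.805 (T1 replicate 1 and T3 replicate 1), 0.951 (T1 replicate 2 and T2 replicate 2) and 0.473 (T2 replicate 1 and T3 replicate 2). The T labels differ in 38 of 38 pairs. Results are therefore given with the arrays counted as separate and, where it matters, with the pairs as a random block, an estimate that allows paired arrays to vary together. Tests are limma's, adjusted over all 13868 genes, and "called" means an adjusted p under 0.05.

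Among the 13 groups, 9 of the 10 genes differed by limma's F test, Lif being the exception (adjusted p = 0.312). The background was high, since 85.9% of all genes tested differed in the same way. Taking the pairs as a block, 4 of the 10 still differed, Il11, Clcf1, Il6st and Osmr, against 54% of all genes. Il11 had the widest range of group means in the family, 3.81 log2 units, followed by Clcf1 (2.09) and Osmr (1.64), where the median gene tested had 0.55. The order of the groups was rarely sharp: of the 12 steps between neighbouring group means of each gene, the step exceeded the larger of the 2 groups' SDs for 2 steps of Clcf1, 1 step of Osmr and 0 steps of the other 8 genes, and the arrays of the neighbours overlapped at every step.

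Among the ligands, Il11 was the most variable. It encodes interleukin-11, which signals through its own receptor and gp130. The 6 MAP3K11 arrays lay between 9.37 and 10.45, with a median of 9.66. The 6 HER2 arrays, the group that received the original driver again, lay between 6.47 and 7.13 (median 6.90). The 6 MAP3K7 arrays ran from 5.79 to 12.73 with a median of 6.95. MAP3K11 was thus uniformly high, and of the other 70 arrays only 2 reached its lowest value, both of them MAP3K7 arrays.

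In order of their means, Il11 stood at 9.79 ± 0.42 (SD, n = 6) in MAP3K11, 8.46 ± 3.14 in MAP3K7 and 7.51 ± 0.92 in FGFR2aIIIb. RSK2 (7.35 ± 1.23), RON+MSP (7.21 ± 0.76), FAK1 (7.19 ± 1.09, n = 4) and FGFR2aIIIc (7.13 ± 0.33) followed closely. HER2 (6.89 ± 0.25), RONd160 (6.83 ± 0.37), TNK2 (6.70 ± 0.43), PIP5K1B (6.51 ± 0.41) and FGFR3 (6.30 ± 0.36) lay lower. ErbB3 was lowest, at 5.97 ± 0.33. No step between neighbours in this order exceeded the spread of the arrays.

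The MAP3K7 group was split. Its arrays T1 replicate 2 and T3 replicate 1, which form 1 of the 38 pairs, had Il11 at 12.73 and 12.21, the highest values of all 76 arrays and above every MAP3K11 array. The other 4 MAP3K7 arrays lay between 5.79 and 6.96. The same 2 arrays carried the highest Lif, which encodes leukaemia inhibitory factor, at 9.02 and 8.68, while the next of the 76 arrays, a FAK1 array, had 7.68. Their Clcf1 was 9.81 and 9.93, inside the MAP3K11 range, where the other 4 MAP3K7 arrays lay between 7.47 and 7.78. Il6 was 6.17 and 7.61, where the other 4 had 4.98 to 5.37, and 7.61 was the highest Il6 of the series. Socs3 was 9.95 and 9.96, where the other 4 lay between 9.19 and 9.35. Il6ra ran the other way, at 6.21 and 6.19 against 6.91 to 7.64. These arrays are labelled as tumours without cachexia, so the highest Il11 and Lif of the series stood in arrays outside the cachexia group. They were singled out after their values were seen, and no test was made between them and the other 4. Their means of the fibroblast markers were 0.43 and 0.68 relative to the mean of the groups, inside the range of the other 4 (-0.04 to 0.87), and their macrophage markers were the lowest of the group, at -0.27 and -0.25. Their luminal and general epithelial markers were low, at -0.58 and -0.50, as in T3 replicate 2 (-0.51), where the other 3 arrays had 0.13 to 0.29. Their endothelial markers stood at -0.52 and -0.19, T3 replicate 2 having -0.42 and the other 3 arrays 0.38 to 1.04. The part of cell composition in these values was not tested.

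**Figure D1:**
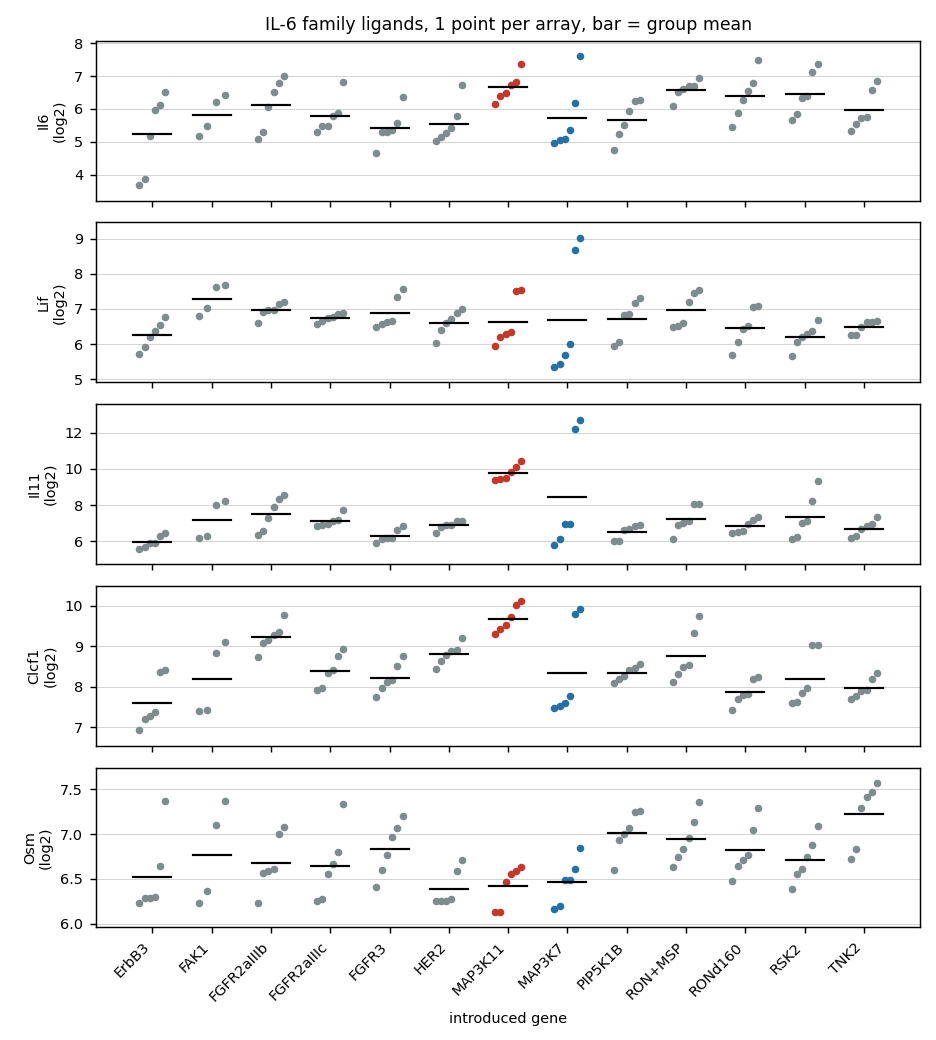
Log2 level of the 5 ligands on each of the 76 arrays (points), by introduced gene, with the group mean as a bar; MAP3K11 is red and MAP3K7 blue, and each panel has its own scale. All 6 MAP3K11 arrays lie between 9.37 and 10.45 for Il11, and 2 MAP3K7 arrays lie above them at 12.21 and 12.73.

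Clcf1, which encodes cardiotrophin-like cytokine factor 1, a ligand of the CNTF receptor complex, also had its highest mean in MAP3K11. Its 6 arrays lay between 9.32 and 10.11 (median 9.62), the HER2 arrays between 8.43 and 9.20 (median 8.83) and the MAP3K7 arrays between 7.47 and 9.93 (median 7.69). MAP3K11 and HER2 did not overlap, whereas 6 of all 70 other arrays reached the lowest MAP3K11 value. The means fell from 9.69 ± 0.32 in MAP3K11 through 9.23 ± 0.35 in FGFR2aIIIb to 8.81 ± 0.26 in HER2, the 2 steps that exceeded the SDs. RON+MSP (8.76 ± 0.64), FGFR2aIIIc (8.39 ± 0.41), MAP3K7 (8.35 ± 1.18), PIP5K1B (8.33 ± 0.18), FGFR3 (8.21 ± 0.36), FAK1 (8.19 ± 0.90, n = 4) and RSK2 (8.18 ± 0.67) were close together. TNK2 (7.98 ± 0.25), RONd160 (7.86 ± 0.31) and ErbB3 (7.60 ± 0.63) were lowest.

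Il6 itself, interleukin-6, likewise had its highest mean in MAP3K11 but varied more within groups than between them. Its MAP3K11 arrays lay between 6.16 and 7.37 with a median of 6.61. In RON+MSP they lay between 6.09 and 6.95 (median 6.65), and in HER2 between 5.02 and 6.73 (median 5.33). The group means ran from 6.66 ± 0.42 in MAP3K11, 6.59 ± 0.28 in RON+MSP and 6.46 ± 0.68 in RSK2 down to 5.42 ± 0.55 in FGFR3 and 5.22 ± 1.21 in ErbB3. The top groups thus overlapped, and 28 of the 70 other arrays were at or above the lowest MAP3K11 array. ErbB3 held the lowest Il6 of the series in 1 pair, at 3.68 (T2 replicate 1) and 3.86 (T3 replicate 3), while its other 4 arrays lay between 5.17 and 6.53. Those low values lay below the 40th percentile of every array (4.68 to 4.86), the level of the filter on low values. The same 2 arrays had the lowest neutrophil marker means of ErbB3, at -0.70 and -0.92, where the other 4 lay between -0.13 and 1.30. Over the 76 arrays Il6 and the neutrophil mean had a Pearson r of 0.62, the highest of Il6 with the 11 marker lists, given as a description. Over the 13 group means it was 0.26. The part of these cells in Il6 was not tested.

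Lif showed no order of groups that held against the arrays. Its means ran from 7.29 ± 0.43 in FAK1 (n = 4) to 6.21 ± 0.35 in RSK2, with MAP3K11 at 6.64 ± 0.70. In MAP3K11 the pair T2 replicate 1 and T3 replicate 2 had 7.52 and 7.54, and the other 4 arrays lay between 5.94 and 6.34. Osm encodes oncostatin M, a product mainly of myeloid cells. Its means ran from 7.22 ± 0.35 in TNK2 and 7.02 ± 0.24 in PIP5K1B to 6.42 ± 0.23 in MAP3K11 and 6.39 ± 0.20 in HER2. The whole range of Osm over the 76 arrays was 1.44 log2 units, the narrowest in the family.

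RefSeq promoter sequences (GRCm38.p6, 250 bases before to 50 after a transcription start) were held for 8 of the 10 genes. They were searched on both strands for a STAT motif (TTCNNNGAA, in 8.30% of 32851 promoters), an AP-1 motif (TGANTCA, in 7.81%), a kappa B motif (GGNNTTTCC, in 5.82%) and a CRE (TGACGTCA, in 1.79%). Such letters are bound by STAT3, AP-1 factors, NF-kappa B and CREB in other settings, and a match is a description of the sequence only. The AP-1 letters were found in Il6, beginning 249 bases before the start, in Lif (228 before), in 1 of 2 starts of Il11 (98 before) and in Osmr (3 after). The kappa B letters were found in Il6 (43 before), the STAT letters in Socs3 (154 before), and the CRE in 0 of the 8 genes. Il6st, Lifr and Il6ra held none of the 4 in this window. The 4 promoters printed here are those of the 3 ligands with a match and of Socs3, with each match in capitals and the rest in lower case, 5′ to 3′ on the gene's strand.
Il11, chr7:4778092-4778391 (minus strand): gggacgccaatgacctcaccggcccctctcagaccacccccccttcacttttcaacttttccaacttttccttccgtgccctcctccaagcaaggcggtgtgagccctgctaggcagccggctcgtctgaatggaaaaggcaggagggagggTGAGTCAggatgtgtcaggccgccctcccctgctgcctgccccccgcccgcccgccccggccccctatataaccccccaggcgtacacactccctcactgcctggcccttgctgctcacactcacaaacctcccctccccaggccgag
Il6, chr5:30012864-30013163 (plus strand): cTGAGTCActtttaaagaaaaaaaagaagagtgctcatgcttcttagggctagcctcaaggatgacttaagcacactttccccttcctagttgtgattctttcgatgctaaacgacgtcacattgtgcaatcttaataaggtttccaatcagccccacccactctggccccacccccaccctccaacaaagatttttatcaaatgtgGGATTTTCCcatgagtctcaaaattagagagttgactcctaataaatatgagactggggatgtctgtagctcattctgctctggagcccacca
Lif, chr11:4257318-4257617 (plus strand): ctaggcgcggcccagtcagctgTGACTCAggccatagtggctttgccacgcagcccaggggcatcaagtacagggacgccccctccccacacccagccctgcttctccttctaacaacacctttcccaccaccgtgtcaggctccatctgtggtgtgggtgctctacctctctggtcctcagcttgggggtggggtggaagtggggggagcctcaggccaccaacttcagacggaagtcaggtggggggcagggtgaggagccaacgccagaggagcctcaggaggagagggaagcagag
Socs3, chr11:117969317-117969616 (minus strand): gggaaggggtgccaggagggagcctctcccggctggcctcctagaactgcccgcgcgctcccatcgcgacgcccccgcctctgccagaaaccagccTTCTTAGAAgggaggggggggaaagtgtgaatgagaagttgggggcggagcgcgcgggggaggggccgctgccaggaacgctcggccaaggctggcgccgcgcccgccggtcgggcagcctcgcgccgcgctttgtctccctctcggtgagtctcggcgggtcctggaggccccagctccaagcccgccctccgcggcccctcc

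The question of the study's design for these genes is how tumours kept by MAP3K11, the group labelled with cachexia, differ from the rest. Against the mean of the other 12 groups, 5 of the 10 genes rose and 2 fell in MAP3K11: Il11, Clcf1, Osmr, Il6st and Il6 were higher, and Socs3 and Osm lower. MAP3K11 differed in 54.2% of all genes tested, 25% higher and 29.3% lower, so 7 of 10 called is to be read against that. The median difference of the 10 genes was 0.41 log2 units, against -0.01 over all genes. With the pairs as a block 5 of the 10 were called (4 higher and 1 lower, against 39.3% of all genes); Il6 (adjusted p = 0.108) and Osm (adjusted p = 0.135) dropped out.

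Il11 was higher in MAP3K11 by 2.79 log2 units (SE 0.45, 6.90-fold, adjusted p = 4.16e-07), and by 2.90 against HER2 (SE 0.61, adjusted p = 7.26e-05). Clcf1 was higher by 1.36 (SE 0.23, 2.57-fold, adjusted p = 1.35e-06), with all 3 of its probe sets higher, at 1.36, 1.72 and 1.26. For Il6 the difference was 0.77 (SE 0.30, adjusted p = 0.0268). The Il6 call ended without MAP3K11 T1 replicate 1 (adjusted p = 0.0598), T1 replicate 2 (0.0512) or T2 replicate 2 (0.113). Lif did not pass, at -0.05 (SE 0.27, adjusted p = 0.899). Osm was lower by 0.34 log2 units in MAP3K11, at -0.34 (SE 0.13, adjusted p = 0.0285), and this call ended without T1 replicate 2 (adjusted p = 0.0877), T2 replicate 1 (0.121) or T2 replicate 2 (0.0506), and under quantile normalization (0.0563).

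Osmr, the oncostatin M receptor chain, was the receptor with the largest difference. Its MAP3K11 arrays lay between 9.15 and 9.76 (median 9.68), the HER2 arrays between 7.60 and 8.40 (median 8.08) and the MAP3K7 arrays between 8.48 and 9.61 (median 9.13). MAP3K11 lay wholly above HER2, and 11 of the 70 other arrays reached its lowest value. The difference was 0.97 from the other 12 groups (SE 0.20, 1.96-fold, adjusted p = 2.55e-05) and 1.50 from HER2 (SE 0.27, adjusted p = 3.78e-06). Its less bright probe set above the filter differed by 0.32 and did not pass (adjusted p = 0.0672). The group means of Osmr ran from 9.54 ± 0.27 in MAP3K11, 9.13 ± 0.39 in RON+MSP, 9.12 ± 0.61 in RSK2 and 9.04 ± 0.41 in MAP3K7 through 8.66 ± 0.29 in FGFR2aIIIc, 8.65 ± 0.37 in FGFR2aIIIb, 8.64 ± 0.59 in ErbB3, 8.56 ± 0.16 in TNK2 and 8.52 ± 0.41 in FGFR3. RONd160 (8.37 ± 0.53), PIP5K1B (8.13 ± 0.35), HER2 (8.04 ± 0.35) and FAK1 (7.90 ± 1.11, n = 4) were lowest. The 4 FAK1 arrays fell into their pairs, at 9.03 and 8.67 in the 1 and at 6.83 and 7.06 in the other, the lowest Osmr of the series.

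Il6st, the shared gp130 chain, was brightest in RSK2 (9.38 to 10.69, median 9.51), MAP3K11 (9.42 to 9.79, median 9.54) and ErbB3 (9.28 to 10.03, median 9.52). MAP3K11 exceeded the other 12 groups by 0.46 (SE 0.12, 1.38-fold, adjusted p = 0.00134) and HER2 by 0.75 (SE 0.17, adjusted p = 0.000182), with no overlap of its arrays with those of HER2 (8.68 to 9.06). The result rests on 1 probe set: the other 3 of Il6st differed by -0.05, -0.07 and 0.01 and were not called, and with the mean of all probe sets the difference was 0.09 (adjusted p = 0.495), or 0.25 against HER2 (0.133). The group means of Il6st ran from 9.76 ± 0.52 in RSK2 to 8.82 ± 0.36 in RONd160.

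Lifr, the LIF receptor chain, was 0.37 higher in MAP3K11 (SE 0.16) and just missed the threshold (adjusted p = 0.0517). It passed under several of the other settings, among them quantile normalization (adjusted p = 0.0211) and the mean of all probe sets (0.00128), and 1 of its other probe sets was called, at 0.50. It did not pass with the pairs as a block (adjusted p = 0.213). The group means ran from 7.73 ± 0.53 in ErbB3, 7.50 ± 0.54 in RSK2 and 7.47 ± 0.21 in MAP3K11 to 6.73 ± 0.14 in FAK1 (n = 4). Il6ra, the IL-6 receptor chain, differed by 0.19 (SE 0.17, adjusted p = 0.352). Its group means ran from 7.23 ± 0.19 in TNK2 to 6.18 ± 0.17 in RON+MSP, with MAP3K11 at 6.92 ± 0.32.

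Socs3, the feedback inhibitor induced by STAT3, was lowest in MAP3K11. The 6 MAP3K11 arrays lay between 8.86 and 9.44 (median 9.28) and the 6 HER2 arrays between 9.69 and 10.05 (median 9.87), without overlap. Of all 70 other arrays, 11 were at or below the highest MAP3K11 value. Socs3 fell by 0.57 log2 units against the other 12 groups (SE 0.13, adjusted p = 0.000116) and fell by 0.68 against HER2 (SE 0.17, adjusted p = 0.000809). All 3 of its probe sets were lower, at -0.57, -0.36 and -0.40. The highest group mean was 10.04 ± 0.19 in FGFR2aIIIb. In MAP3K11, higher Il11, Clcf1 and Osmr, and higher Il6st on 1 of its 4 probe sets, thus stood beside lower Socs3.

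**Figure D2:**
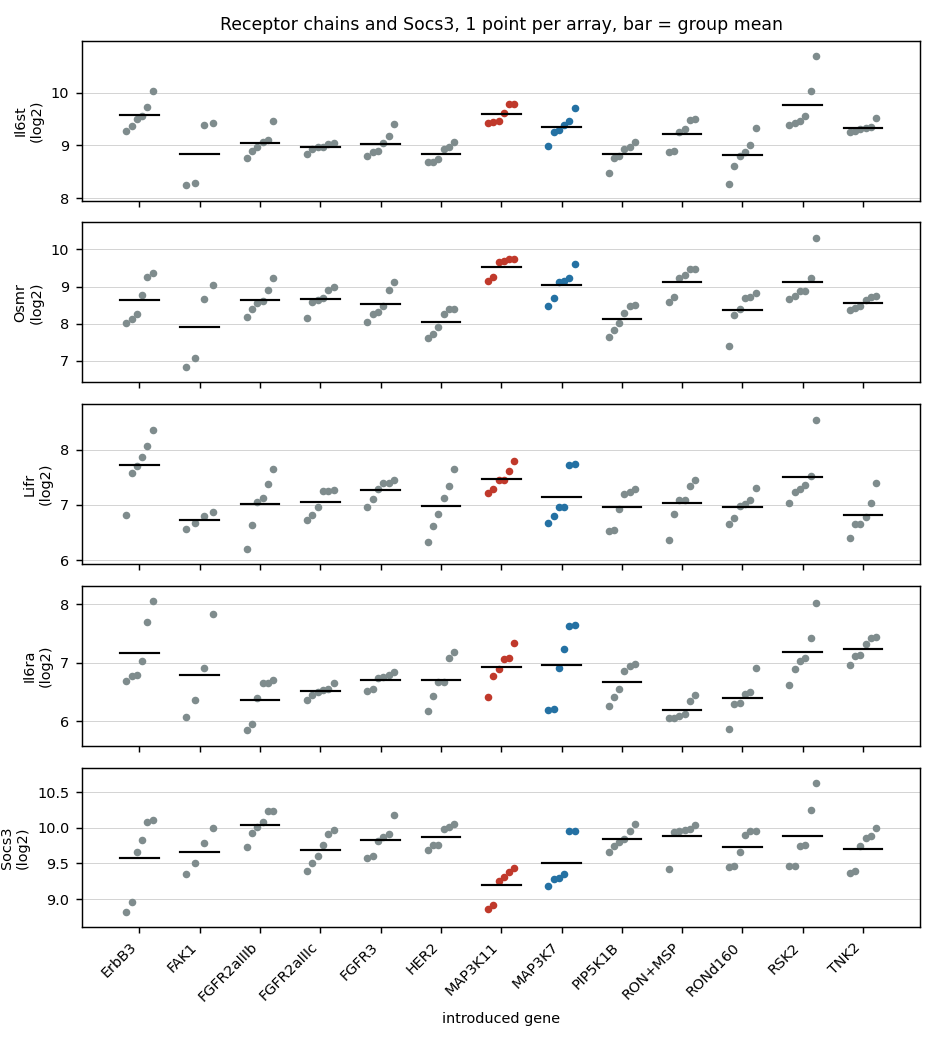
Log2 level of the 4 receptor chains and Socs3 on each of the 76 arrays (points), by introduced gene, with the group mean as a bar; MAP3K11 is red and MAP3K7 blue, and each panel has its own scale. The MAP3K11 arrays lie between 9.15 and 9.76 for Osmr and between 8.86 and 9.44 for Socs3, where their mean is the lowest of the 13 groups.

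Against HER2 alone, 6 of the 10 genes were called (49.2% of all genes): Il6, Il11, Clcf1, Il6st and Osmr higher and Socs3 lower. Taking the pairs as a block, 5 were called (33.3% of all genes), the difference of 1.11 in Il6 being lost (SE 0.52 with the block, adjusted p = 0.0945). The Il6 call also ended without MAP3K11 T2 replicate 2 (adjusted p = 0.0589) or HER2 T1 replicate 2 (0.0508). Clcf1 was 0.88 higher than in HER2 (SE 0.32, adjusted p = 0.0178). Lif (0.03, SE 0.36), Osm (0.03, SE 0.18), Lifr (0.48, SE 0.22) and Il6ra (0.22, SE 0.23) did not pass.

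Against MAP3K7, the other kinase of its class, 1 of the 10 genes was called, Clcf1, higher by 1.33 (SE 0.32, adjusted p = 0.000568), where 37.4% of all genes were called. It was again 1 under the block (21.6% of all genes). Clcf1 did not pass when only the arrays of these 2 groups were fitted (adjusted p = 0.0597). Il11 was 1.32 higher (SE 0.61) and did not pass (adjusted p = 0.0816), its MAP3K7 arrays lying on either side of the MAP3K11 range. With array weights, which count deviating arrays less, it did pass (2.47, adjusted p = 1.23e-05). Without MAP3K7 T1 replicate 2 the Il11 difference was 2.17 (adjusted p = 0.0011), and without T3 replicate 1 it was 2.11 (0.00204). Without both, an alternative chosen after seeing the data, 6 genes were called: Il11 (3.33), Clcf1 (2.08), Il6 (1.55), Lif (1.03), Osmr (0.71) and Lifr (0.63). Lif had differed by -0.06 with all arrays, so its direction turned. Under the block as well, 4 of these were called, Osmr (adjusted p = 0.174) and Lifr (0.18) being lost. The share of all genes called without the 2 arrays is not given here, so the counts of 6 and 4 stand without a background. Because the 2 arrays were picked for their high Il11, these values describe how far the comparison depends on them.

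**Figure D3:**
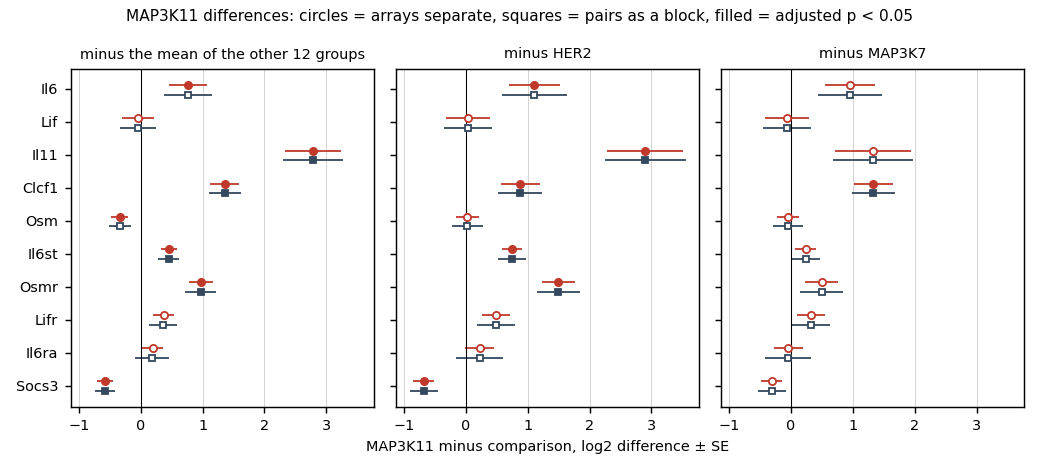
Difference of MAP3K11 from the mean of the other 12 groups, from HER2 and from MAP3K7, in log2 units with SE bars, for the 10 genes; circles count arrays as separate, squares take the pairs as a block, and filled symbols have an adjusted p under 0.05. Il11 lies at 2.79, 2.90 and 1.32 in the 3 panels, and it is not called against MAP3K7.

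The other groups were set against the mean of their own other 12 in the same way. Over all 13 groups, 26 of the combinations of gene and group were called, 7 of them in MAP3K11. Taking the pairs as a block left 7, of which 5 were in MAP3K11. These comparisons share their arrays, and the shares of all genes called are given beside each. Those shares ran from 1.62% (FGFR2aIIIc) to 54.2% (MAP3K11), and with the block from 0% (FGFR3) to 39.3% (MAP3K11). The counts of 26 and 7 are to be read against them and are not by themselves a trait of this family. ErbB3 had the most after MAP3K11, 6 of 10 genes (28.6% of all genes). Of its 5 ligands 3 were lower: Clcf1 (-0.92, SE 0.24), Il11 (-1.36, SE 0.46) and Il6 (-0.81, SE 0.30). Of its 4 receptor chains 3 were higher: Il6st (0.47, SE 0.13), Lifr (0.65, SE 0.17) and Il6ra (0.47, SE 0.17). Osmr (0.01, adjusted p = 0.976), Lif (-0.46, 0.201), Osm (-0.22, 0.224) and Socs3 (-0.16, 0.373) did not pass. ErbB3 also had the lowest luminal and general epithelial mean of the 13 groups (-0.68, arrays -1.71 to 0.21) and the highest macrophage mean (0.44, arrays 0.22 to 0.80), and their part in these differences was not tested. With the block 1 of the 6 was called, Clcf1 (adjusted p = 0.0146; 11.9% of all genes). Leaving out single arrays ended the calls of Il6 (T2 replicate 1, T3 replicate 1 or T3 replicate 3), Il11 (T1 replicate 2 or T3 replicate 2) and Il6ra (T2 replicate 1 or T3 replicate 2), with adjusted p-values of 0.0528 to 0.306.

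RSK2 had 1 gene called, Il6st (18.2% of all genes), higher by 0.62 (SE 0.12, adjusted p = 0.000429). With the block it was called too (adjusted p = 0.0253; 2.59% of all genes), and no single RSK2 array ended it. The pair RSK2 T2 replicate 2 and T1 replicate 1 led the group in Il6st (10.69 and 10.02), Osmr (10.31 and 9.22), Lifr (8.54 and 7.52), Il11 (9.32 and 8.23) and Il6 (7.37 and 7.12). Its Socs3 was high as well, at 10.63 and 10.24, unlike in MAP3K11.

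HER2 had 3 genes called, all lower (26.6% of all genes, 9.55% with the block): Osmr (-0.65, SE 0.20), Il6st (-0.35, SE 0.12) and Osm (-0.37, SE 0.13). None was called with the block (limma; adjusted p = 0.0882, 0.171 and 0.195), where 3 had an unadjusted p under 0.05. Without HER2 T2 replicate 2 all 3 calls ended, and those of Il6st and Osm also ended without T1 replicate 1 or T1 replicate 2, and that of Osm without T3 replicate 1. PIP5K1B had 2 (18.7%, 3.61% with the block), Osmr (-0.60, SE 0.20) and Il6st (-0.37, SE 0.13). Each ended when any of T1 replicate 1, T2 replicate 3 or T3 replicate 2 was left out, and also T2 replicate 2 for Osmr and T2 replicate 1 for Il6st. RONd160 had 2 (23.3%, 8.73% with the block), Clcf1 (-0.65, SE 0.24) and Il6st (-0.36, SE 0.12). Both ended without T1 replicate 3 or T3 replicate 2, and Clcf1 also without T1 replicate 2 or T2 replicate 1. None of these calls in PIP5K1B and RONd160 was made with the block (limma; adjusted p = 0.132 to 0.204, with 2 genes of each group at an unadjusted p under 0.05). The mean of all probe sets in place of the brightest ended the Il6st calls of HER2, PIP5K1B and RONd160 and the Clcf1 call of RONd160, which also ended under quantile normalization (adjusted p = 0.0504).

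In 5 more groups 1 gene was called. In MAP3K7 it was Il11 (1.35, SE 0.45; 24.4% of all genes, 7.9% with the block), and this call ended without T1 replicate 2 (0.49, adjusted p = 0.426) or T3 replicate 1 (0.58, 0.362), and without both the direction turned (-0.65, adjusted p = 0.155). In FGFR2aIIIb it was Clcf1 (0.87, SE 0.23; 11.9%, 1.91% with the block), which ended without T3 replicate 1 (adjusted p = 0.0564). In RON+MSP it was Il6ra, lower (-0.61, SE 0.17; 8.57%, 0.461% with the block), which ended without T1 replicate 1 (adjusted p = 0.0591). In TNK2 it was Osm (0.54, SE 0.14; 5.16%, 0.0937% with the block), which ended without T1 replicate 2 (adjusted p = 0.0567) or T1 replicate 3 (0.0539). In FAK1 it was Osmr (-0.77, SE 0.24; 8.42%, 0.808% with the block), which ended without T1 replicate 2 (adjusted p = 0.427) or T3 replicate 1 (0.409), with the mean of all probe sets (0.403) and with array weights (0.62). Array weights also ended the Il11 call of MAP3K7 (0.25, adjusted p = 0.68). In all 5 groups the call was lost with the block. FGFR2aIIIc and FGFR3 had 0 genes called by limma, with 0 and 1 at an unadjusted p under 0.05 (1.62% and 2.6% of all genes called, and 0.0721% and 0% with the block).

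The T labels made no difference that passed. For T2 against T1 and for T3 against T1, 0 of the 10 genes were called by limma, 0 and 0 had an unadjusted p under 0.05, and 0% of all genes were called in each comparison (306 and 654 genes had an unadjusted p under 0.05). With the pairs as a block, 2 and 0 of the 10 had an unadjusted p under 0.05, 0 were called, and 0% and 0.00721% of all genes were.

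How the spread of each gene was shared among groups, pairs and arrays differed within the family. For Il11, 48.9% of the sum of squares over the 76 arrays lay between groups, 49.4% between pairs of a group and 1.65% within pairs. Clcf1 (54.1%, 42.9% and 2.95%) and Lif (18.5%, 76.8% and 4.74%) also had small shares within pairs, whereas Il6ra (44.1%, 29.4% and 26.5%) and Lifr (37.4%, 43.3% and 19.3%) had larger ones. The medians over all genes tested were 43.9%, 38.6% and 13.2%. The shares are relative to the whole spread of each gene. In log2 units the median difference within pairs was 0.19 for Il11, 0.22 for Clcf1 and 0.17 for Lif. In the rest of the family it was 0.16 (Socs3), 0.19 (Il6st), 0.22 (Osmr), 0.24 (Osm), 0.29 (Lifr), 0.31 (Il6ra) and 0.31 (Il6). Il11, Clcf1 and Lif thus lay inside the range of the rest, below Osm, Lifr, Il6ra and Il6. Other arrays of the same group differed by medians of 0.68 for Il11, 0.45 for Clcf1 and 0.48 for Lif. The pairs were matched on these arrays' expression.

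**Figure D4:**
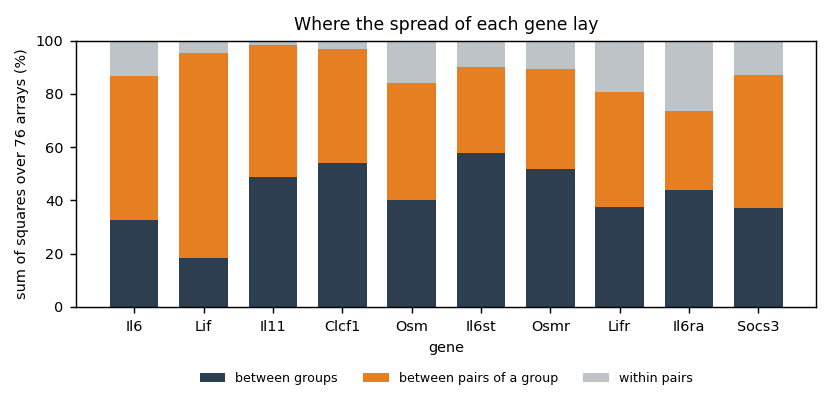
Share of the sum of squares over the 76 arrays (percent, stacked bars) that lay between groups, between pairs of a group and within pairs, for the 10 genes. The share within pairs is 1.65% for Il11 and 26.5% for Il6ra.

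Members that rose together were described by correlations, without a test, since the arrays of a pair are not independent. Il11 and Clcf1 had a Pearson r of 0.74 over the 13 group means and 0.80 over the 76 arrays with group means removed, or 0.67 over the 74 arrays without the MAP3K7 pair. Lif and Il11 had 0.13 over the group means and 0.76 within groups, and the latter dropped to 0.38 without that pair. Il6st and Osmr, which form 1 receptor, had 0.79 over the group means and 0.71 within groups (0.76 without that pair). Osm and Lifr ran against each other, at -0.49 and -0.48.

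Of all genes tested, those with group means most like Il11 over the 13 groups were Zfp334 (r = 0.95), Sorbs2 (0.94) and Lypd1 (0.93). Those most like Clcf1 were Nmt2, Akap2 and Tom1l1 (each 0.91). For Osmr they were Col1a2 (0.98), Sulf1 (0.97) and Col5a2 (0.97), of which Col1a2 and Col5a2 encode fibrillar collagen chains made by fibroblasts. Col1a2 ran from a mean of 12.06 in HER2 to 13.24 in MAP3K11, the direction of Osmr.

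Levels of several of the genes followed marker lists of cell types over the groups. The mean of 10 fibroblast markers, relative to the mean of the groups, was 0.56 in MAP3K11 (arrays 0.36 to 0.76), 0.56 in RSK2, 0.50 in MAP3K7, 0.40 in ErbB3 and 0.38 in RON+MSP. It was -0.51 in PIP5K1B, -0.52 in FAK1 and -0.68 in HER2 (arrays -1.07 to -0.36). Over the 13 group means the fibroblast mean correlated with Osmr at r = 0.91, Il6st at 0.87, Lifr at 0.73 and Il6ra at 0.31, and with Il11 at 0.46 and Clcf1 at 0.09. The endothelial mean gave values as high for Osmr (0.89) and Il6st (0.88), with Lifr at 0.61 and Il6ra at 0.38. The ligands Clcf1, Il6 and Il11 had r = 0.65, 0.58 and 0.57 with the luminal and general epithelial mean, which was highest in MAP3K11 (0.74), and -0.63, -0.67 and -0.50 with the macrophage mean, which was lowest there. Socs3 had 0.68 with the mast cell mean, 0.64 with the skeletal muscle mean and -0.62 with the T and NK cell mean. These values are a description over 13 points, with no test. Over the 76 arrays Clcf1, Il6 and Il11 had 0.35, 0.23 and 0.20 with the luminal and general epithelial mean. With the macrophage mean they had -0.60, -0.38 and -0.50. Socs3 had 0.27 with the mast cell, 0.32 with the skeletal muscle and -0.22 with the T and NK cell mean. Osmr, Il6st and Lifr had 0.81, 0.75 and 0.47 with the fibroblast mean, again with no test. The FAK1 pair with the lowest Osmr had fibroblast means of -1.50 and -1.39, and the other FAK1 pair 0.44 and 0.39. In bulk tumours fewer cells of a type and less RNA per cell cannot be told apart.

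In MAP3K11 against the other 12 groups, 7 of 10 fibroblast markers were called higher and 1 lower, 7 of 8 endothelial markers higher, 5 of 7 luminal and general epithelial markers higher, 5 of 10 macrophage markers lower and 6 of 8 skeletal muscle markers lower, where 25% of all genes were called higher and 29.3% lower. With the pairs as a block (39.3% of all genes called) the fibroblast counts were the same, and 4 endothelial and 4 luminal and general epithelial markers were higher and 4 macrophage and 2 skeletal muscle markers lower. The macrophage mean was -0.40 in MAP3K11 (arrays -0.56 to -0.24) and -0.37 in HER2, the 2 groups with the lowest Osm, but it was also -0.38 in RON+MSP, where Osm was among the highest. The skeletal muscle mean was -2.27 in MAP3K11 (arrays -2.36 to -2.12) and 3.02 in RSK2. Neutrophil, T and NK cell, B cell, mast cell, basal epithelial and adipocyte markers had 1, 2, 2, 0, 0 and 0 members called higher and 0, 0, 0, 1, 0 and 0 lower, of 6, 6, 4, 5, 3 and 4 tested, and these calls were lost with the block. Against MAP3K7, 37.4% of all genes were called, and 21.6% with the block. There 2 fibroblast markers were higher and 2 lower, and 0 of 8 endothelial markers were called by limma. Of 10 macrophage markers 6 were lower and 0 higher (3 lower with the block). Of 7 luminal and general epithelial markers 4 were higher and 0 lower (2 higher with the block). The part of these cell types in the differences of the receptor chains and ligands was not tested.

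**Figure D5:**
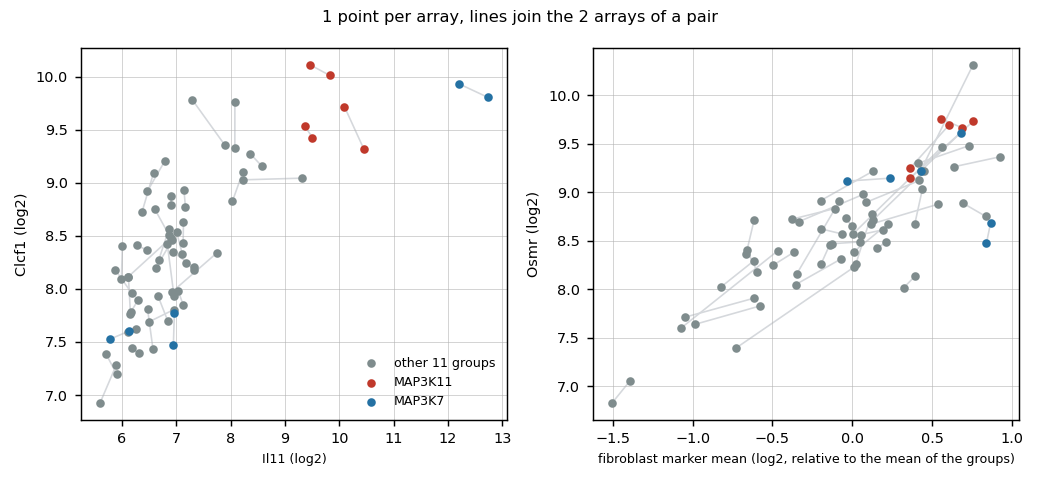
Left, Clcf1 against Il11; right, Osmr against the mean of 10 fibroblast markers relative to the mean of the groups, all in log2 units, with 1 point per array and lines joining the arrays of a pair; MAP3K11 is red, MAP3K7 blue and the other 11 groups grey. The MAP3K7 pair with Il11 at 12.21 and 12.73 lies beyond the MAP3K11 arrays on the left, and Osmr follows the fibroblast mean on the right.

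The rest of the pathway was read through 4 lists for MAP3K11 against the other 12 groups, where 54.2% of all genes were called. Of 11 other ligands and receptors of the family, 6 were measured and 5 tested, and 3 were higher and 1 lower: Il27ra (0.32), a chain of the interleukin-27 receptor, Cntfr (0.27), the CNTF receptor chain through which Clcf1 can act, and Il31ra (0.24) were higher, and Ctf1 (-0.26), cardiotrophin-1, lower. With the block Il27ra and Ctf1 were called. Il11ra1, the specific receptor of interleukin-11, was not analysed here. The median of the 5 was 0.24.

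Of 17 genes of JAK-STAT signalling tested, 5 were higher and 4 lower, with a median of 0.11. They were led by Gab2 (1.05), an adaptor downstream of cytokine receptors, and by Stat5b (-0.82), Shc1 (-0.42), an adaptor to the RAS pathway, and Stat5a (-0.38). All 4 were called with the block. Stat3, named here outside the rule for naming genes, differed by -0.07 (SE 0.08, adjusted p = 0.515).

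Of 20 known STAT3 target and acute-phase genes tested, 3 were higher and 4 lower, with a median of -0.06. Lbp (1.05), a lipopolysaccharide-binding acute-phase protein, was higher, and Pim3 (-0.70), a survival kinase, Ccnd1 (-0.58), cyclin D1, and Myc (-0.51) were lower. All 4 were called with the block. Members of the list were thus called in both directions.

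Of 12 regulators of Il6 transcription, mRNA decay and receptor shedding tested, 4 were higher and 4 lower, with a median of 0.02. Nfkbia (-0.72), the inhibitor of NF-kappa B, was lower, and Rela (0.50), an NF-kappa B subunit, Arid5a (0.39), which stabilises Il6 mRNA, and Atf3 (0.61), a stress-induced transcription factor, were higher. Atf3 was not called with the block (adjusted p = 0.176), where 2 of the list were higher and 2 lower.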

How the data were processed

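Total RNA of 76 mouse tumours was extracted with a Qiagen RNeasy kit and hybridised as biotinylated cRNA to Affymetrix arrays, per the labels' protocols. The authors deposited 1 value on the log2 scale for each of 45101 probe sets and array. affy is named in the submitters' processing notes; how background, normalization and probe set summaries were computed was not given in the sources used here. Array medians (5.45 to 5.56) were alike, and the values were used as deposited.

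Probe sets naming 1 gene (34958; 932 name several and 9211 have none listed) were reduced to the one with the highest mean per gene, 18194 genes, with names from GEO's platform annotation and GRCm38.p6. Tests were run on the 13868 genes that exceeded the 40th percentile of the array on 4 arrays or more. limma 3.58.1 (statmod 1.5.0, R 4.3.3) fitted all arrays with introduced gene and T label as terms (61 residual degrees of freedom); tests were two-sided with Benjamini-Hochberg adjustment, and a group was set against the equally weighted mean of the other 12. Differences are thus adjusted for T. Arrays of a group were paired by the correlation of their autosome medians (19 autosomes, 13372 genes), and the pairs entered as a random block (correlation 0.628). The fit was tested on simulated data in which the arrays varied independently, so that test does not cover paired arrays that vary together. Other calculations used Python 3.11.15 with pandas 2.3.3.

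The 10 genes, the lists and the alternatives were chosen with earlier results of these data known. Genes named besides the 10 are, in each pathway list, up to 4 called genes with the largest difference for MAP3K11 against the other 12 groups, and, for the 3 genes with the widest range of group means, the 3 genes with the highest Pearson r of the 13 group means. Settings varied were the block, the T term, the replicate number, the filter, the scaling of arrays, the probe sets, the variance prior, array weights and the arrays and groups in the fit. 1 gene is not reported here.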

Additional observations from a re-analysis of the deposited data

Results flagged for a closer look

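In 6 of 130 sets of arrays, each set being 1 gene in 1 group, a single array stood apart from the others of its group by Dixon's criterion, where chance gives about 5% of sets, or 6.5. RSK2 T2 replicate 2 stood highest in Osmr (10.31, the next RSK2 array 9.22) and in Lifr (8.54, the next 7.52). FGFR2aIIIc T2 replicate 1 was highest in Il11 (7.75, the next 7.17), ErbB3 T1 replicate 1 in Osm (7.37, the next 6.64) and TNK2 T1 replicate 1 in Il6st (9.51, the next 9.34). RON+MSP T1 replicate 1 was lowest in Socs3 (9.42, the next 9.93). The MAP3K7 arrays with high Il11 and Lif do not appear here because 2 arrays stood together.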

How the results depend on the processing

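With 1 value per gene, Il11, Clcf1, Osmr and Socs3 kept direction and call in MAP3K11 under every setting run. This held both against the other 12 groups and against HER2. Single probe sets kept the direction but not always the call. Against the other 12 groups the less bright one of Osmr was not called (limma, adjusted p = 0.0672). With the block, the Socs3 probe set at -0.40 was not called either (0.0706). With the pairs as a random block, 4 genes differed among the 13 groups in place of 9, and 7 combinations of gene and group were called in place of 26; with array weights 40 were. Against MAP3K7, where 1 gene was called, quantile normalization and the mean of all probe sets each gave 2, array weights 4, and the fit of the 2 groups alone 0. Without the 2 MAP3K7 arrays, chosen after seeing the data, it was 6, and 4 with the block; Lif then turned from -0.06 to 1.03 (1.02 with the block), and Il11 in MAP3K7 against the other 12 groups to -0.65. Leaving out single arrays gave 1 to 3 genes against MAP3K7, 5 to 7 against HER2, 5 to 8 against the other 12 groups and, for FAK1 arrays, 25 to 31 combinations. The cause of these changes was not tested. Shares of all genes called are given for the fit described above and for that fit with the block. For the other settings they are not given, so those counts stand without a background. With the replicate block, the replicate number of the labels as a fixed term, the counts were 9 among the groups, 7, 1 and 6 for MAP3K11 against the other 12 groups, MAP3K7 and HER2, 27 combinations and 0 for the T labels. Arrays of different groups with the same number had a median r of -0.002 in their deviations from the group means, against -0.004 with different numbers. A median over all such pairs of arrays does not show a batch shared by only some groups, which was not tested. Quantile normalization moved the median of all genes by 0.03. Signals of the 10 genes lay on every array above 2.95, the control median pooled over all arrays, and the group size limits the precision. Il6 exceeded the 40th percentile of the array on 73 of the 76 arrays, so its lowest values lay near the background.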
